A study of Homo sapiens with 40 samples.

Results

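The genes described here encode protein phosphatases, their regulatory subunits and close relatives. They were taken from a catalogue of long-read transcript models of H9, an established line of human embryonic stem cells. A model belonged to the set when its gene name began with PPP and a digit from 1 to 6, or with PPM1, PTPN, PTPR, PTPA, PTPM or DUSP and a digit. Joined names were left out, which removed 2 antisense genes. The rule took 154 of 19972 models (0.771%), from 83 of 9460 genes. No measured value was used in it.

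The series compared embryonic stem cells (ESC), labelled as control, with neural progenitor cells (NPC) obtained from the same H9 line by dual-SMAD inhibition. RNA of each cell type was sorted by ribosome load, giving total cytosol, monosomes, light polyribosomes with 2 to 4 ribosomes, and heavy ones with at least 5. Poly(A)-selected libraries were made from these 8 groups, 16 by long reads with 2 per group and 24 by short reads with 3 per group. The catalogue has no abundance and no value per library, and the sources used here do not say which libraries it was built from. ESC, NPC and the fractions are therefore not compared, and depth is unknown. The absence of a model says nothing about whether the gene was silent. Of the markers listed for the cells, 9 of 10 pluripotency genes, 7 of 10 neural progenitor genes, 4 of 5 neuron genes and 4 of 11 genes of other lineages had a model. LIN28A, LHX2, SOX1, HES5 and ELAVL3 had none. Every model had at least 2 exons, so a marker gene without introns could not have one.

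Protein phosphatases remove the phosphate groups that kinases add to proteins. Serine and threonine phosphatases of the PPP family, such as PP1 and PP2A, share a few catalytic subunits among many regulatory subunits, which choose the substrate and the place in the cell. PPM1 enzymes act without such subunits and need metal ions, PTPN and PTPR enzymes act on phosphotyrosine, and DUSP enzymes include those that switch off MAP kinases. An exon gained or lost can therefore alter either the enzyme itself or the subunit that directs it.

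The share of RefSeq phosphatase genes with a model lay above that of protein-coding genes in general, and it ranged widely between families. Of 154 protein-coding genes that RefSeq names under the same rule, 82 had at least 1 model (53.2%, 95% Wilson interval 45.4 to 61.0%, counting error only). The share over all 20056 protein-coding genes was 41.9%. Every model had at least 2 exons, so genes without introns could not be found, although both totals include any such genes. How far this moved the shares, or their order between families, was not tested. The remaining member, PPP4R1L, is typed as a transcribed pseudogene. Catalytic subunits with names from PPP1 to PPP6 were nearly complete with 10 of 11, and PPP3CA, a catalytic subunit of calcineurin, was the one without a model. PP4 regulatory subunits followed with 5 of 6, then those of PP2A with 11 of 14, PPM1 enzymes with 9 of 12, PP6 regulatory subunits with 2 of 3 and DUSP enzymes with 15 of 25. Calcineurin regulatory subunits had 1 of 2 and PP1 regulatory subunits 18 of 41. The PTPN enzymes with PTPA and PTPMT1 had 7 of 19, and the PTPR group 4 of 21. The PTPR group includes PTPRCAP, which encodes a protein associated with a receptor phosphatase and had no model. These shares are descriptions and were not tested against each other.

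**Figure D1:**
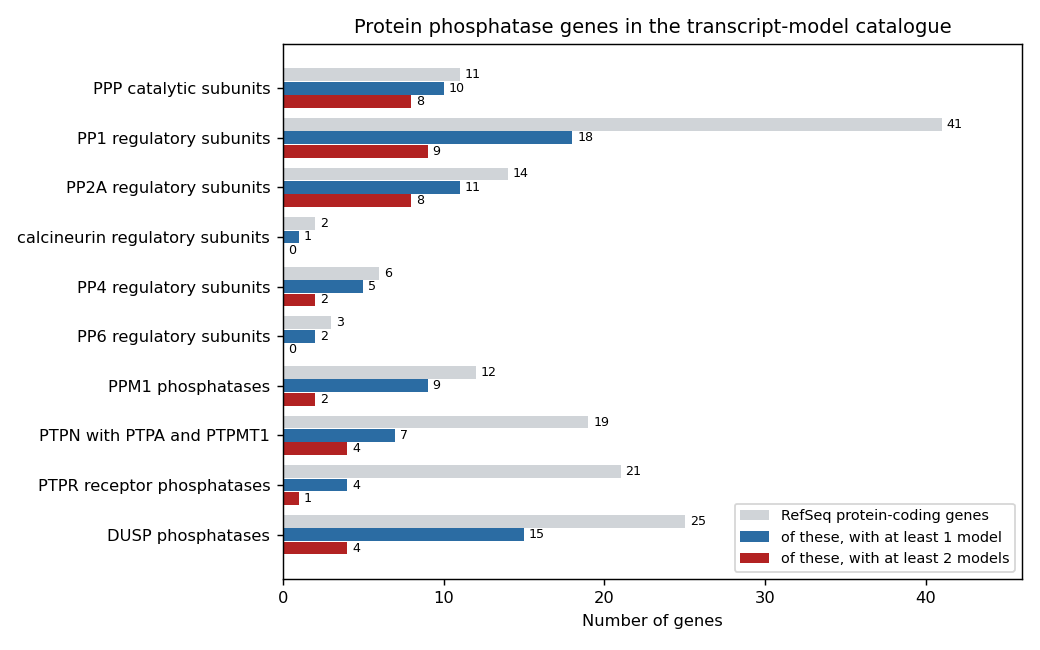
Number of genes (x axis) in each phosphatase family (y axis): RefSeq protein-coding genes under the rule (grey), those with at least 1 transcript model (blue) and those with at least 2 (red). Catalytic PPP subunits reach 10 of 11 genes, whereas PTPR genes reach 4 of 21; the pseudogene PPP4R1L is not counted.

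Genes without a model were not spread evenly over the subfamilies. Those without introns could not have one, since every model had at least 2 exons, and the part this played was not tested. Of the PPP1R3 genes, whose products bring PP1 to glycogen, 1 of 7 had a model, PPP1R3B. All 3 PPP1R1 genes, which encode inhibitors of PP1, and 3 of 4 PPP1R14 inhibitor genes had one. Both PP2A scaffold genes were found, as were 3 of 4 PPP2R2, 2 of 3 PPP2R3 and 4 of 5 PPP2R5 genes. Among tyrosine phosphatases PTPN11, a transducer of growth factor signals, PTPRZ1, a receptor known from neural progenitors and glia, and PTPRC, a leukocyte gene, had none.

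Phosphatase genes had as many models as genes in general, or slightly fewer. Members averaged 1.86 ± 1.28 models (SD across the 83 genes), against 2.11 ± 1.70 across all 9460 genes. The medians were 1 and 2 models. A single model was found for 45 members, 2 for 22, 3 for 7, 4 for 4, 5 for 3, 6 for 1 and 7 for 1. Thus 38 of 83 had at least 2 models (45.8%, 95% Wilson interval 35.5 to 56.4%), near the 50% of all genes. PTPA led with 7, ahead of PPP1R35 with 6, PPP1R7, PPP2R3C and PPP4C with 5, and DUSP22, PPP1CC, PPP2R2B and PTPN18 with 4.

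Member models had a median length of 1742 nt (range 554 to 4321) against 1537 nt in the catalogue, and a median of 7 exons against 6. A coding region was given for 145 of the 154 models (94.2%), against 86.4% of all models. It had a median of 308 codons against 285, counted as deposited with the last codon included. In 10 of the 145 the coding region came within 2 nt of an end of the model and may be incomplete (6.90%, catalogue 4.01%). These were models of PPM1K, PPP1R12C, PPP1R18, PPP2R5E, PPP4R2, PPP4R3A and PPP6R1. At least 1 model without a coding region was found in 5 of 83 members (6.02%), namely DUSP22, PPP1R11, PPP1R1C, PTPA and PTPN18, against 17.6% of all genes. The catalogue shares of 86.4 and 17.6%, and its medians of length and exon number, include genes without any coding model. They are therefore no like-for-like measure for these members. At least 1 coding model was present in 8579 of 9460 genes and in 82 of the 83 members.

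Where a phosphatase gene had several coding models, their deposited coding regions usually differed. Whether different proteins are made from them was not tested. Of 38 members with at least 2 coding models, 34 had at least 2 coding regions (89.5%, 95% Wilson interval 75.9 to 95.8%), close to the 84.4% of 4072 such genes in the catalogue. The 4 with a single coding region were PPP1CB, PPP1R1B, DUSP3 and DUSP23. At least 2 coding starts were present in 16 of the 38 (42.1%, catalogue 44.8%) and at least 2 coding ends in 18 (47.4%, catalogue 41.6%). The spread was widest for PPP1R16A, PPP2R1A and PPP1R21, and narrowest for PPP3CB, whose forms differed by 1 codon.

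**Figure D2:**
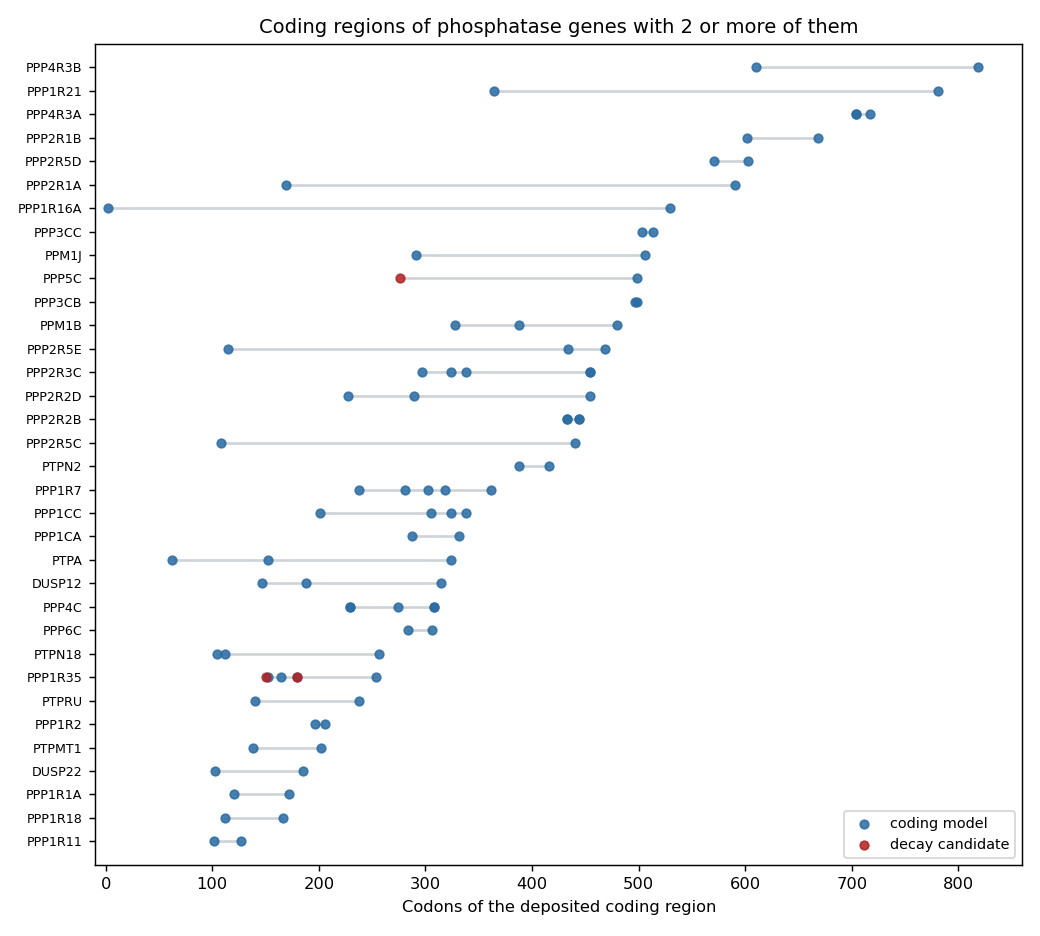
Codons of the deposited coding region (x axis) of each coding model of the 34 phosphatase genes with at least 2 coding regions (y axis, ordered by the longest). Red points are candidates for nonsense-mediated decay by the 50-nt rule, and grey lines join the shortest and longest form of a gene; PPP5C runs from 276 to 498 codons, with the shorter form a candidate.

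PP1 is made with 1 of 3 catalytic subunits, and all 3 genes were present with different kinds of variation. PPP1CC lies on chromosome 12 from 110719816 to 110742924, and its 4 models read from 1 start into 338, 324, 305 and 201 codons. The first 2 differ in their last part and correspond in arrangement to the known gamma2 and gamma1 forms of the enzyme. In the 338-codon model an intron of 900 nt, from 110720205 to 110721104, was removed. In the 324-codon model it was kept, the coding region ended within it, and the 3' untranslated region measured 1260 nt against 318 nt. The 305-codon and 201-codon models ended earlier, in a last exon of 459 and 457 nt that ran past a splice donor used by the other 2. The shortest also used an upstream donor in the exon before, which took out 152 nt from 110722472 to 110722623.

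PPP1CA, on chromosome 11 from 67398183 to 67401858, had forms of 331 and 287 codons. They differed by a cassette exon of 132 nt, from 67401068 to 67401199, that is an internal exon present in 1 model and spliced over in another. Its length is 44 codons, so both forms had the same coding start and end. PPP1CB, on chromosome 2 from 28751743 to 28801650, had 2 models with the same 328 codons. Their difference lay in the 5' untranslated region, which measured 165 nt in the model with 9 exons and 293 nt in the model with 8.

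**Figure D3:**
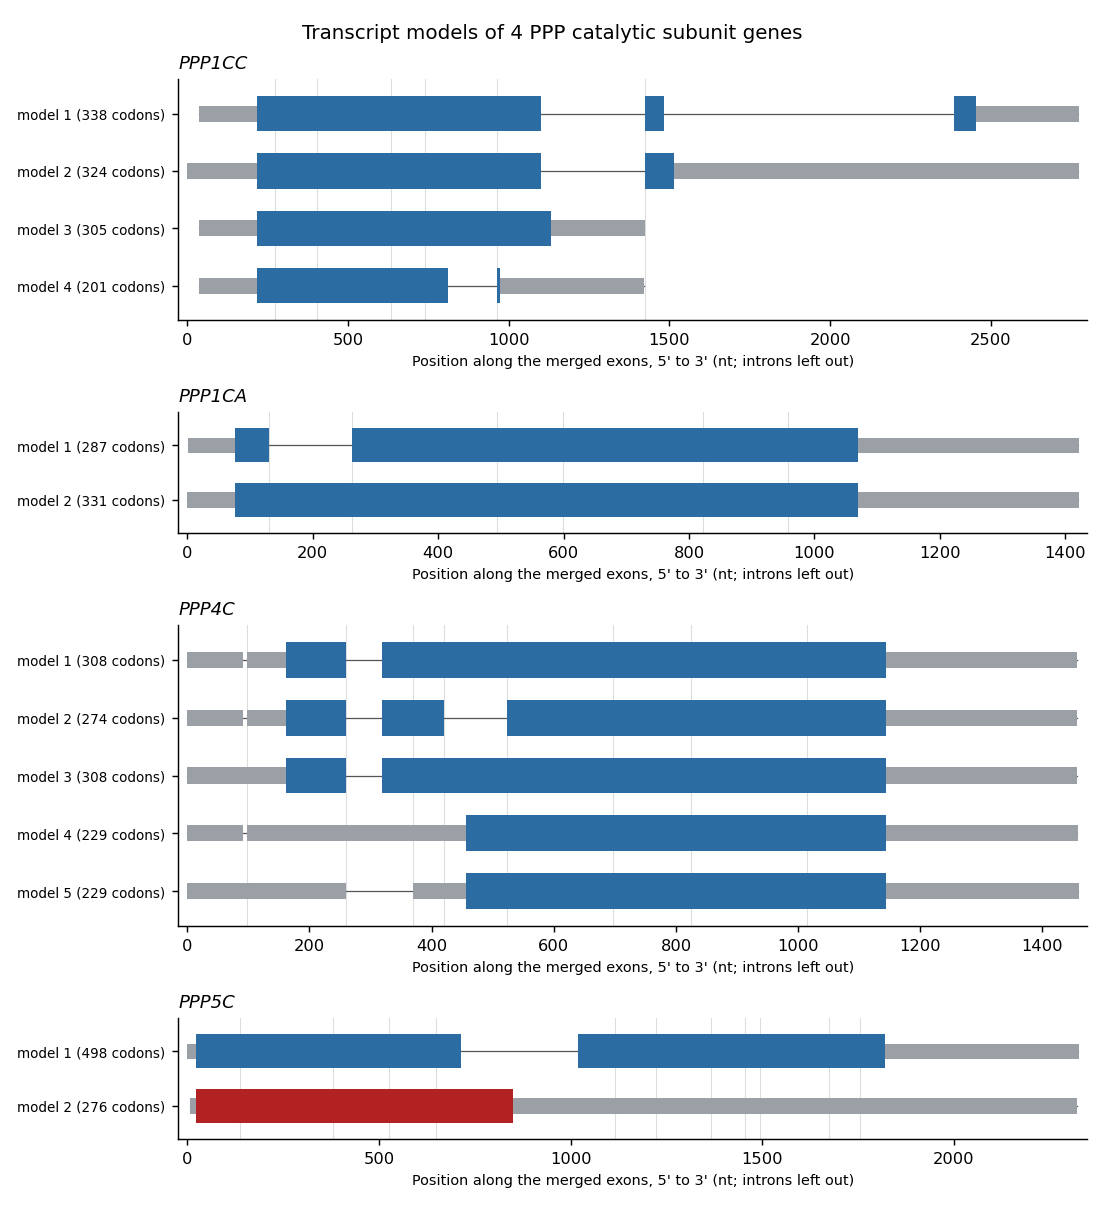
Transcript models of PPP1CC, PPP1CA, PPP4C and PPP5C along the merged exons of each gene (x axis, nt from the most upstream 5' end, introns left out; y axis, models). Tall boxes are coding regions (red in a decay candidate), low grey boxes untranslated regions, thin lines stretches missing from a model and pale vertical lines exon boundaries; the 4 PPP1CC models part at their 3' ends and share 1 coding start.

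The catalytic subunits of PP2A, which takes part in cell cycle exit and many signalling pathways, were given by single models: PPP2CA, on chromosome 5 from 134196546 to 134226083, and PPP2CB, on chromosome 8 from 30785624 to 30812840, had 1 model each, both with 7 exons and 310 codons. PP4, a relative of PP2A, had the catalytic gene with the most models. PPP4C lies on chromosome 16 from 30076003 to 30085377, and its 5 models gave 3 coding regions. Models of 308 codons differed from each other by 6 nt at the end of the first, untranslated exon. Skipping of an exon of 102 nt, from 30082746 to 30082847, gave 274 codons with the same start and end. In the other 2 models an exon of 52 nt further upstream, from 30081259 to 30081310, was either skipped or extended by 59 nt. Both had a coding region of 229 codons that began downstream, at 30082782.

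Calcineurin, the calcium-dependent phosphatase PP3, was represented by PPP3CB and PPP3CC and by the regulatory gene PPP3R1. PPP3CC, on chromosome 8 from 22441078 to 22541143, had forms of 513 and 503 codons that differed by a cassette exon of 30 nt, the shortest of all member cassette exons. PPP3CB, on chromosome 10 from 73443789 to 73495998, had forms of 498 and 497 codons, which differed by 3 nt at a splice acceptor. PPP3R1, which encodes the calcium-binding subunit, lies on chromosome 2 from 68178859 to 68252532 and had 1 model with 171 codons. PPP6C, the catalytic subunit of PP6 on chromosome 9 from 125149006 to 125189795, had forms of 306 and 284 codons, separated by a cassette exon of 66 nt, which is 22 codons.

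PPP5C, which encodes a phosphatase with tetratricopeptide repeats that binds the chaperone HSP90, was the catalytic gene with a decay candidate. It lies on chromosome 19 from 46347081 to 46390852. Its model of 498 codons removed an intron of 303 nt, from 46383477 to 46383779, and its other model kept the intron and had 276 codons. The coding region of the latter ended 906 nt upstream of the last exon junction. A stop more than 50 nt upstream of that junction is the usual mark of a target of nonsense-mediated decay, and is a rule on the model, not a measurement of decay.

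PP1 inhibitors are small proteins that block the catalytic subunit. PPP1R1A, which encodes inhibitor 1, lies on chromosome 12 from 54579246 to 54588623. It had forms of 172 and 120 codons that differed by a cassette exon of 156 nt. PPP1R1B, the dopamine-regulated inhibitor DARPP-32, had 2 models with 1 coding region of 205 codons. A retained intron of 365 nt lengthened its 5' untranslated region from 137 to 489 nt. PPP1R1C had 1 model without a coding region. PPP1R2, which encodes inhibitor 2, lies on chromosome 3 from 195514436 to 195543326 and had forms of 196 and 206 codons. Their last introns differed by 1 nt at the donor, and they ended at different positions, with 3' untranslated regions of 2491 and 648 nt. PPP1R11, which encodes inhibitor 3, lies on chromosome 6 from 30067198 to 30070322. It had forms of 127 and 102 codons, with an intron of 209 nt kept or removed, and a further model with an extra exon of 75 nt and no coding region. PPP1R14A, PPP1R14B and PPP1R14C had 1 model each, of 148, 148 and 166 codons.

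PPP1R35, a centriole protein gene, had the most models of the PP1 regulators. It lies on chromosome 7 from 100435284 to 100436484, and its 6 models had 5 coding regions between 150 and 254 codons. In the form of 254 codons 3 introns, of 76, 80 and 97 nt, were removed. The others kept at least 1 of them or, in the form of 164 codons, skipped an exon of 137 nt. Both models in which the 80-nt intron was kept and the 97-nt intron removed were decay candidates, with the coding end 294 and 131 nt upstream of the last junction. The model that kept the 80-nt and 97-nt introns together had no junction after its coding end, and was no candidate although it shared its 179 codons with 1 that was.

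PPP1R7, which encodes the PP1 regulator SDS22, had 5 models with 5 coding regions, on chromosome 2 from 241149598 to 241183652. Among the 4 models with the same first exon, 2 held a cassette exon of 129 nt (241153476 to 241153604) and 2 lacked it. An early last exon of 129 nt was used by 2 of these 4 and the distant last exons by the others. All 4 combinations were found, with 238, 281, 318 and 361 codons, so that the cassette exon added its 43 codons with either end. The remaining model began in an upstream first exon and had 302 codons.

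**Figure D4:**
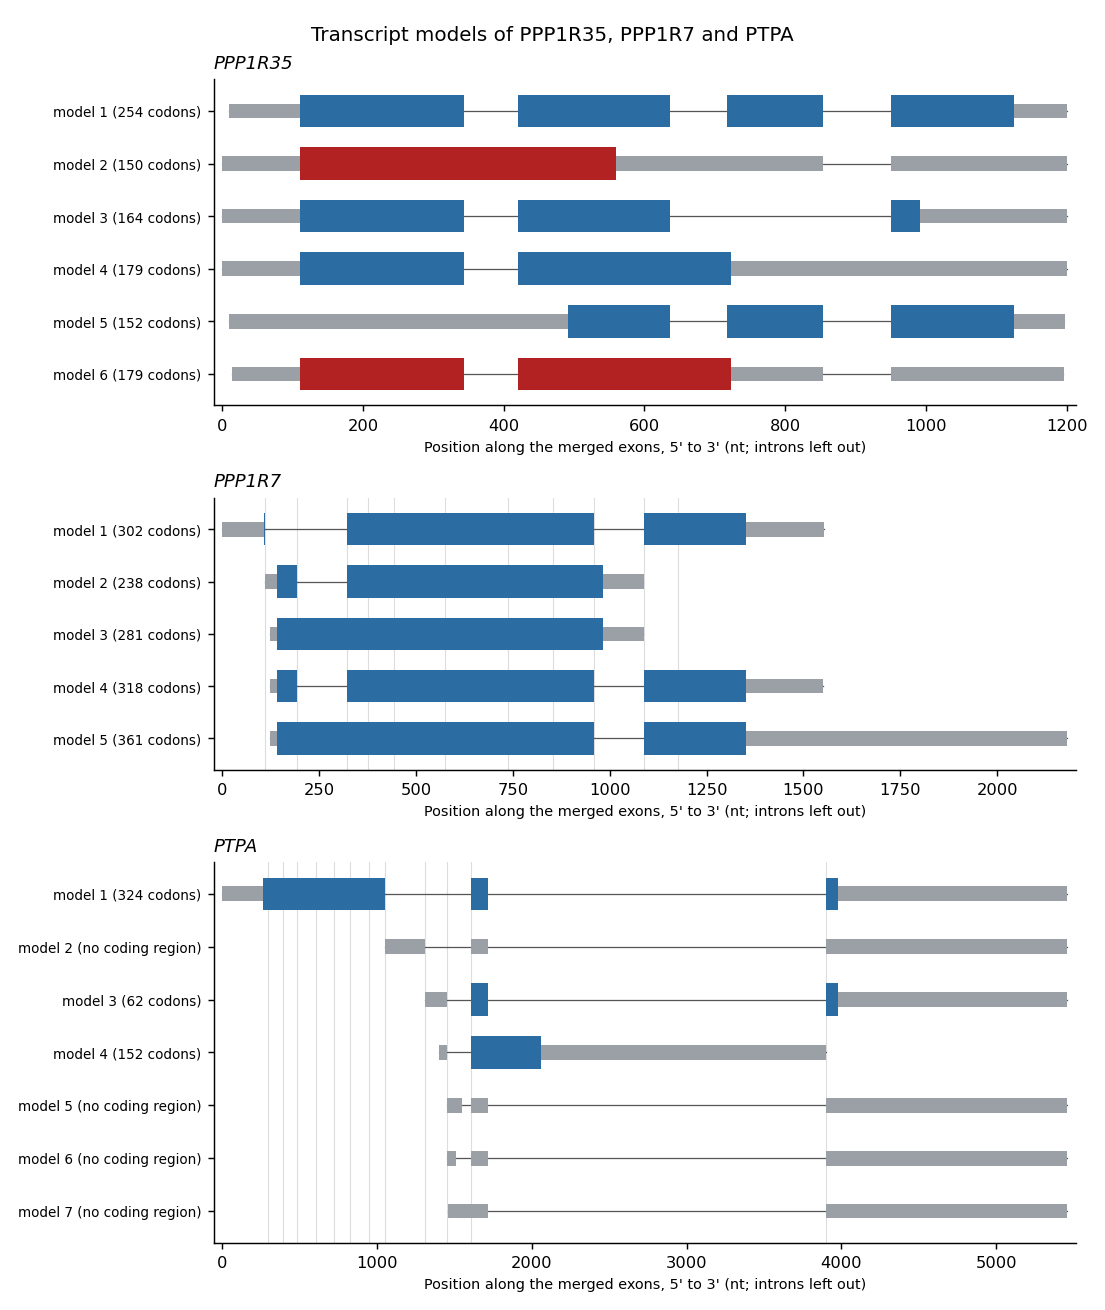
Transcript models of PPP1R35, PPP1R7 and PTPA along the merged exons of each gene (x axis, nt, introns left out unless a model keeps them; y axis, models), drawn as in the map of the catalytic genes. PPP1R35 models differ by introns kept, PPP1R7 models by 1 exon and the 3' end, and 6 of 7 PTPA models begin late in the gene.

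Other PP1 regulators varied at their ends. PPP1R21, an endosomal protein gene, had a form of 781 codons with 22 exons and a form of 364 codons with 11, whose last exon ran past a donor. PPP1R18, which encodes the actin-associated protein phostensin, had 2 first exons with 166 and 112 codons, the latter with its coding start at the first base of the model. PPP1R16A, a PP1 subunit gene on chromosome 8 from 144478020 to 144502121, had a form of 529 codons and a model of 2 exons whose deposited coding region held 2 codons. Single models were found for PPP1R15A, the stress-induced partner GADD34 that directs PP1 to the initiation factor eIF2, with 675 codons. The same was true of PPP1R8, a nuclear inhibitor gene, with 352 codons, PPP1R3B with 285, PPP1R17 with 155 and PPP1R12C with 132. The coding region of PPP1R12C came within 2 nt of the start of its model and may be incomplete.

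PP2A joins its catalytic subunit to a scaffold and to a B subunit. The scaffold genes both had a model that ended early, but only that of PPP2R1A was much shortened. PPP2R1A, on chromosome 19 from 52189959 to 52226418, had 590 codons in 15 exons, and a second model with 4 exons whose last exon of 801 nt ran past a donor and left 169 codons. PPP2R1B had 668 codons, and 602 in a model with its own last exon of 2438 nt in a place where the longer model had an intron. The 602-codon model had 15 exons with 17 coding nt in the last, as had the 590-codon model of PPP2R1A.

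Among B subunits, PPP2R2B, a neural form of the B55 group, combined 2 choices at its 5' end in all 4 ways. It lies on chromosome 5 from 146589506 to 146878759. A stretch of 110 nt at the end of the first exon, from 146878591 to 146878700, was kept in 2 models and removed in 2. An exon of 85 nt (146856499 to 146856583) was likewise held by 2 and lacking in 2, once with each first exon. The 2 models with the 85-nt exon had 433 codons, and the 2 without it had 444, so that this exon and not the 110-nt stretch went with the coding start. The 5' untranslated regions measured 411, 299, 288 and 183 nt. PPP2R2D, a B55 gene on chromosome 10 from 131900986 to 131956548, had 454 codons with an exon of 98 nt. Without that exon it had 289 codons, or 227 where an acceptor 127 nt further on was also used. PPP2R2A had 1 model with 448 codons.

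PPP2R3C, a B subunit gene whose product has calcium-binding motifs, had 5 models with 4 coding regions, on chromosome 14 from 35085472 to 35122519. All 5 had 1 coding end and differed upstream of it. Both models with the exons of 128 and 113 nt had 454 codons. Without the 128-nt exon the coding region held 338, 324 or 297 codons, depending on whether the next variable exon measured 113 nt, was absent or measured 84 nt. PPP2R3B had 1 model with 576 codons.

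**Figure D5:**
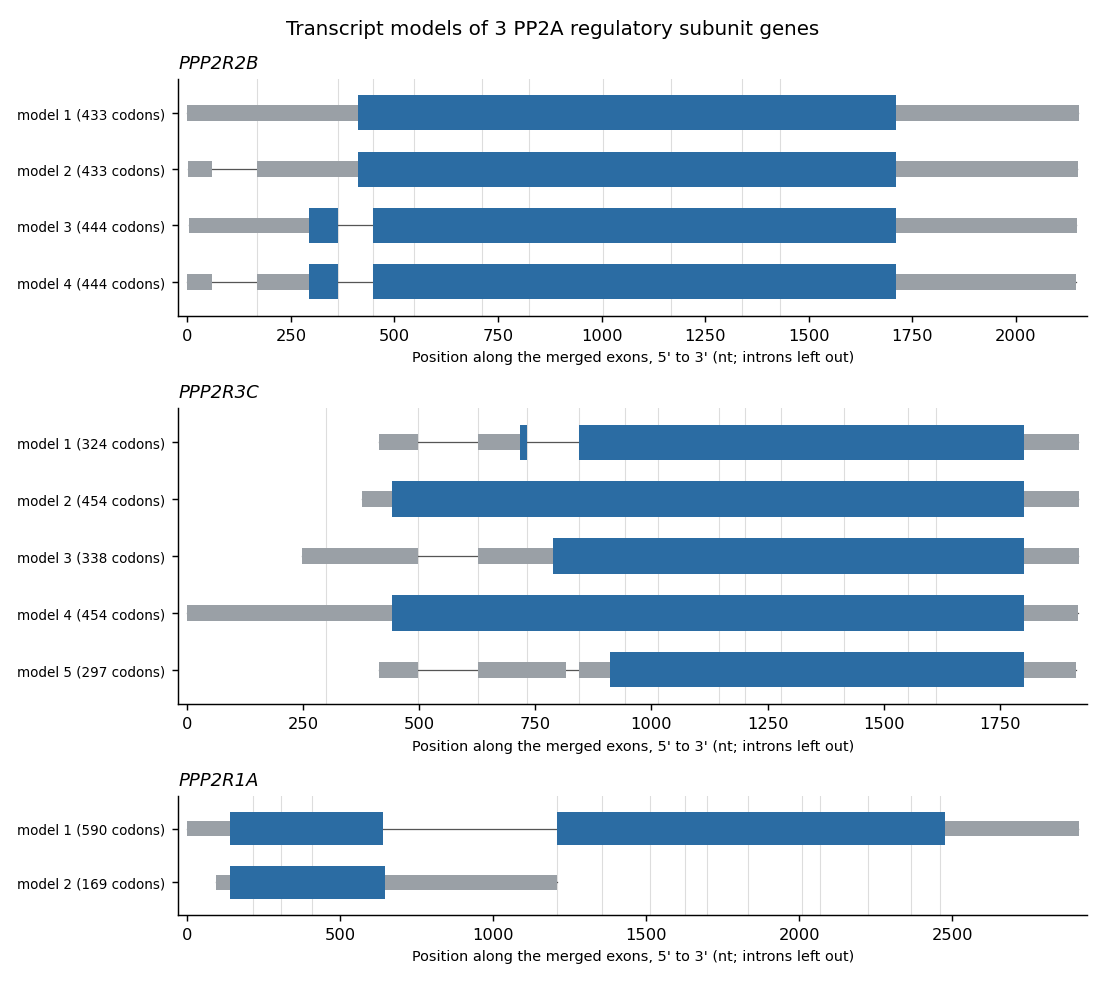
Transcript models of PPP2R2B, PPP2R3C and PPP2R1A along the merged exons of each gene (x axis, nt, introns left out; y axis, models), drawn as in the map of the catalytic genes. PPP2R2B and PPP2R3C models vary at the 5' side and share their coding end, whereas the 169-codon model of PPP2R1A ends in exon 4 of 15.

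B56 subunits, which bind short motifs in their partners, are encoded by the PPP2R5 genes. PPP2R5D had forms of 571 and 603 codons with the same start and end. Exons 3 and 4 measured 144 and 177 nt in the shorter form and 217 and 200 nt in the longer, so that the intron between them had both ends moved. PPP2R5E, on chromosome 14 from 63374736 to 63543361, had forms of 468, 434 and 115 codons. The 115-codon model lacked a cassette exon of 197 nt, from 63453689 to 63453885, and its coding region began far downstream. In the last 2 forms the coding region ended 2 nt before the end of the model, so their true coding end is not shown. PPP2R5C had 440 codons in 12 exons and 108 in a model with 2, and PPP2R5B had 1 model with 498.

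PTPA, named for a phosphotyrosyl phosphatase activity, encodes an activator of PP2A, and most of its models were short. It lies on chromosome 9 from 129111336 to 129148946. The model of 324 codons had 10 exons. The other 6 began within an intron of that model, at 3 separate first exons, and had 2 or 3 exons. Of these 6, 4 had no coding region and 2 had 62 and 152 codons, with the coding start given at the first base of the shared exon of 108 nt or its extension. Whether the short models are separate transcripts or parts of longer ones was not tested.

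The regulatory subunits of PP4 and PP6 had few models. PPP4R3A and PPP4R3B encode related subunits. In PPP4R3A, on chromosome 14 from 91462060 to 91510540, a donor 39 nt downstream gave 717 instead of 704 codons, and an intron of 370 nt in the 5' untranslated region was kept in 2 of 3 models. In PPP4R3B, on chromosome 2 from 55548378 to 55617619, a cassette exon of 624 nt gave 818 codons, against 610 without it, the longest cassette exon of the set. PPP4R1, PPP4R2 and PPP4R4 had 1 model each, with 324, 320 and 145 codons, the first of them on chromosome 18 from 9546915 to 9559604. The pseudogene PPP4R1L, on chromosome 20 from 58247061 to 58309451, had 1 model with 333 codons. It is a copy of PPP4R1, and the sources used here do not say how reads of similar genes were told apart, so its model is uncertain. PPP6R1, on chromosome 19 from 55229779 to 55232191, had 212 codons. PPP6R2, on chromosome 22 from 50343323 to 50444386, had 933, the longest coding region of the set. The coding regions of PPP4R2, PPP6R1 and all models of PPP4R3A came within 2 nt of a model end and may be incomplete.

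Of 9 PPM1 genes, PPM1B and PPM1J had more than 1 model. PPM1B, whose product acts on kinases of stress signalling, had 3 models on chromosome 2 from 44168881 to 44234068 with 1 coding start and 3 ends. The forms held 328, 480 and 388 codons. The first ended in an exon that ran past a donor, and the others spliced to separate last exons of 1060 and 1753 nt. PPM1J, on chromosome 1 from 112710000 to 112715335, had forms of 506 and 291 codons, the latter with a coding start further downstream and an intron of 149 nt kept at the 3' side. PPM1A, which acts on SMAD proteins and other substrates, had 1 model with 383 codons on chromosome 14 from 60249258 to 60293346. PPM1D, a phosphatase induced by p53, had 1 with 606 codons on chromosome 17 from 60600193 to 60664478. Those of PPM1G, PPM1H and PPM1F held 547, 515 and 362 codons, and those of PPM1K and PPM1N 228 and 113. The coding region of PPM1K ran to the last base of its model and may be incomplete.

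Among the PTPN genes, PTPN2 showed 2 well-known forms. It encodes T-cell protein tyrosine phosphatase, which is known in a nuclear form and in a form with a hydrophobic tail at the endoplasmic reticulum. On chromosome 18 from 12785478 to 12884214, its 2 models had 388 and 416 codons. The longer coding region belonged to the model that ended earlier, in a last exon of 1231 nt that ran past the donor of a 102-nt exon. PTPN18, on chromosome 2 from 130356056 to 130375404, had 4 models in 2 groups that did not overlap. The upstream group had a form of 256 codons and a model without a coding region that skipped 3 exons, of 212 nt in sum. The downstream group had 112 and 104 codons. PTPMT1, a mitochondrial phosphatase of cardiolipin synthesis, lies on chromosome 11 from 47565599 to 47571975. It had forms of 202 and 138 codons that differed by a cassette exon of 192 nt. PTPN1, the insulin receptor phosphatase PTP1B, PTPN6 and PTPN9 had 1 model each, with 436, 598 and 584 codons.

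Receptor phosphatases were sparse. PTPRA, with 23 exons and 794 codons on chromosome 20 from 2873494 to 3038666, was the only one of the 4 with more than 249 codons. PTPRK, on chromosome 6 from 128321505 to 128520593, had 3 exons and 249 codons. PTPRS, on chromosome 19 from 5273355 to 5293269, had 4 exons and 137 codons. PTPRU, on chromosome 1 from 29317746 to 29326800, had 2 models of 238 and 140 codons that ended within 3 nt of each other. The mRNAs of this family are long. The longest model of the catalogue measured 5877 nt, and the longest of this family 3310 nt. How far length limited their detection was not tested.

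Of the 15 DUSP genes with a model, 4 had more than 1. DUSP1, DUSP2, DUSP4, DUSP5 and DUSP6, which encode MAP kinase phosphatases, had 1 model each with 3 or 4 exons and 368, 315, 392, 385 and 369 codons. Their relatives DUSP7, DUSP8, DUSP9, DUSP10 and DUSP16 had no model. DUSP22, on chromosome 6 from 292067 to 351354, had 4 models. A form of 185 codons held a cassette exon of 50 nt, from 335114 to 335163. A form of 103 codons lacked it, and 2 models without a coding region lacked it as well. DUSP12, on chromosome 1 from 161749810 to 161757160, had forms of 315, 188 and 147 codons. The 2 shorter ones used an acceptor 13 nt upstream and had a coding start further downstream. DUSP23, on chromosome 1 from 159780936 to 159782541, had 3 models that shared 151 codons and differed in their 5' untranslated regions, of 60, 27 and 98 nt. DUSP3, on chromosome 17 from 43766127 to 43778977, had 2 models of 186 codons. A retained intron of 2797 nt lengthened its 3' untranslated region from 685 to 3482 nt, the largest such difference of the set. DUSP11, an RNA phosphatase gene, and DUSP14, DUSP15, DUSP18 and DUSP19 had 1 model each, of 331, 199, 236, 189 and 218 codons. DUSP28 had 1 model, a decay candidate with its coding end 52 nt before the last junction and thus just past the 50-nt limit.

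Exon skipping was found in more phosphatase genes than any other event between models, and within coding regions its length followed the reading frame in 8 of 15 exons. The set held 19 cassette exons in 15 of the 38 members with at least 2 models (39.5%, 95% Wilson interval 25.6 to 55.3%, catalogue 49.3%), with a median of 111 nt against 110 nt in the catalogue. Of the 19, 15 lay inside a coding region of a model that held them (78.9%, 95% Wilson interval 56.7 to 91.5%, catalogue 59.7%). The catalogue share counts cassette exons of all genes, with or without a coding model, so it is no like-for-like measure here. The 8 divisible by 3 (53.3%, catalogue 44.1%) were those of PPP1CA, PPP1R1A, PPP1R7, PPP3CC, PPP4C (102 nt), PPP4R3B, PPP6C and PTPMT1. For each of these, a model with the exon and a model without it shared coding start and end. The 7 not divisible by 3 lay in DUSP22, PPP1R35, PPP2R2D, PPP2R3C (113 and 128 nt), PPP2R5E and PPP4C (52 nt), and none of them had such a pair. No coding region had a length not divisible by 3. Forms that differ only by such an exon could therefore not share both start and end, and the lack of pairs is no separate result. In 5 of the 7 the coding end was shared and the start was not. Whether the deposited starts are used was not tested. No cassette exon of the set was a microexon of at most 27 nt (0 of 19, 95% Wilson interval 0 to 16.8%). The catalogue share of 1.26% lay within this interval.

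Early ends were found in fewer genes than exon skipping. A model was said to end early when its 3' end lay before the last exon of the furthest-reaching model of the gene, a definition chosen after the models were seen. There were 18 such models in 13 of 38 members (34.2%, catalogue 27.1%). In 9 of them, from DUSP12, DUSP22, PPM1B, PPP1CC, PPP1R21, PPP2R1A, PTPA and PTPN2, the last exon ran past a donor, a form that made up 49.0% of early-ending models in the catalogue. In 5, from PPM1B, PPP1R7, PPP2R1B and PPP2R5C, the last exon lay inside an intron of the other model (27.8% of the 18, catalogue 43.1%). Late starts were found in 20 models of 9 genes (23.7%, catalogue 19.6%), 6 of them in PTPA. Whether early and late ends reflect polyadenylation and promoter sites or incomplete molecules was not tested.

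The remaining events had shares near or below those of the catalogue. Each 95% Wilson interval covered the catalogue share, that of alternative 3' splice sites with 4.17 to 24.1% only narrowly. The lower shares therefore do not show a lack of these events. Retained introns were found in 8 of 38 members (21.1%, catalogue 17.3%), with 4 of the 11 in PPP1R35. Alternative 5' splice sites were found in 9 (23.7%, catalogue 25.2%), alternative 3' splice sites in 4 (10.5%, catalogue 23.3%), alternative first exons in 3 (7.89%, catalogue 11.2%) and an alternative last exon in 1, PPM1B (2.63%, catalogue 5.50%). Skips of at least 2 adjacent exons were found in DUSP22 and PTPN18 (5.26%, catalogue 12.7%). Of 145 coding models 4 were decay candidates (2.76%, 95% Wilson interval 1.08 to 6.88%, catalogue 3.14%), in DUSP28, PPP1R35 and PPP5C. By genes these were 3 of 82 (3.66%, catalogue 5.01%). Differences of at least 100 nt in the 3' untranslated region between models with 1 coding end were found in 5 (13.2%, catalogue 13.1%). They measured 2797 nt in DUSP3, 630 nt in PPP1R7, 303 nt in PPP2R2D, 122 nt in PPP6C and 102 nt in PPP1R35, and PTPMT1 followed with 51 nt.

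In pairs of coding models of 1 gene, the 3' side of the coding region varied about as often as the 5' side. Of 105 pairs from 38 members, 32 (30.5%) shared the start and not the end, and 31 (29.5%) shared the end and not the start. The shares over the 19330 pairs of the catalogue were 22.8 and 29.3%. Pairs with both ends shared and a difference inside made up 14 (13.3%, catalogue 16.9%), identical coding regions 13 (12.4%, catalogue 19.8%) and pairs with neither end shared 15 (14.3%, catalogue 11.3%). Genes with many models weigh more in these counts, and pairs of 1 gene are not independent.

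A hand-chosen list of phosphatases and partners outside the naming rule was read beside the members. Of its 58 genes 39 had a model (67.2%), against 41.9% of all protein-coding genes. Here too, genes without introns could not have a model. At least 2 models were found for 19, and the median was 1 model. ENSA, which encodes an inhibitor of PP2A with B55 during mitosis, and the PPM-type phosphatase gene ILKAP had 5 models each. ENSA had 5 coding regions of 106 to 138 codons, and its paralogue ARPP19 had 3 models. CDC25C, a mitotic phosphatase gene, LCMT1, which methylates the PP2A catalytic subunit, and EYA3 had 4 models each. PHLPP1, PHLPP2 and the calcineurin substrate genes NFATC1, NFATC2 and NFATC4 had none. Of 11 MAP kinase genes, the substrates of several DUSP enzymes, 9 had a model and 4 had at least 2. MAPK3 led with 4 models and 3 coding regions of 266 to 380 codons, and MAPK11 and MAPK14 had none.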

How the data were processed

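The authors deposited 1 table of transcript models, marked as long-read. It places every transcript, exon and coding segment by its outer bases and gives PacBio as source, while the labels name R2C2, which reads circles of cDNA repeatedly, for the long-read libraries. STAR 2.7.8a and Salmon 1.9.0 appear in the submitters' processing notes, where no role is stated. The sources used here do not name the model builder, the caller of coding regions, the annotation or the genome build, so positions are printed as deposited, counted from 1.

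The labels put the 40 libraries in groups of cell type, fraction and read type. No library has values of its own, so no test between groups was run, including the one planned for counts, and none was run on gene lists. Members, lists and definitions were chosen with earlier results of these data known.

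Models were compared within gene, chromosome and strand with Python 3.11.15 and scipy 1.17.1. Introns with alternative splice sites had 1 end in common and overlapping exons at the other. Alternative first or last exons shared the next splice site. An intron was called retained when 1 exon of another model spanned it. The event finder was tested on simulated loci. All 83 members matched a RefSeq symbol. RefSeq was used for names, gene types and the totals of protein-coding genes behind the shares with a model. Named with coordinates were all PPP catalytic genes, up to 4 genes with the most models per family, genes with a coding cassette exon or a decay candidate beside another coding model, and those with the 6 largest 3' untranslated region differences. PPP1R2 and PPP2R1A are given with coordinates too, chosen after their values were seen. Other genes are named with single values. No sequence is printed, because no genome of the files' build was used here.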

Additional observations from a re-analysis of the deposited data

How the results depend on the processing

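Most counts were within 1.5 times of the reported value under the alternatives run, and those that were not all required more support or another definition. With at least 2 models required, 38 of 154 RefSeq protein-coding genes under the rule were found instead of 82. When both the form with the exon and the form without it had to occur in 2 or more models, 3 of the 19 cassette exons were left, 1 of 2 coding ones divisible by 3 instead of 8 of 15, and 1 of 3 genes with an alternative first exon. A gene with 2 or 3 models cannot meet this requirement, so most of the drop follows from its construction. First exons that did not overlap, with no shared splice site required, were found in 9 genes, an alternative chosen after seeing the data. The catalogue shares of coding cassette exons depend on the models judged. With models that hold the exon counted only where their flanking sites matched the skip, also chosen after seeing the data, they were 56.5% of cassette exons and 45.3% divisible by 3 instead of 59.7 and 44.1%, and the members gave 8 of 15. A difference of at least 200 nt in the 3' untranslated region was found in 3 genes instead of 5. A decay limit of 55 nt left out DUSP28 and gave 3 candidates. Counts of genes with several models or coding regions, and the median length, moved by less. No paired analysis was possible because the deposited models carry no value per library. Since depth is unknown, further isoforms of these genes may have gone unseen.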
